A study of Homo sapiens with 40 samples.

Results

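NEAT1, the long noncoding RNA on which paraspeckles are built, was followed with the transcripts of 4 paraspeckle proteins, NONO, SFPQ, PSPC1 and RBM14, through fractionated human embryonic stem cells. The 5 genes were taken by name from tables of 57939 genes (total RNA) and 58336 genes (polyA RNA), and all 5 were listed in both. The cells were H1, a single established human embryonic stem cell line, kept undifferentiated (day 0) or taken on day 3 or day 5 of a mesoderm protocol of BMP4 followed by bFGF. On each day the total RNA was sequenced from an unfractionated sample (INPUT) and from the extracts of a kit, namely the cytoplasmic extract (CE), membrane extract (ME), soluble nuclear extract (SNE), chromatin-bound nuclear extract (CBNE, freed with micrococcal nuclease) and pellet extract (PE). This gave 18 groups of 2 libraries, 36 in all, and polyA RNA of day 0 cytoplasm and nucleus added 2 libraries each. Every group is of the same unmodified line, and the labels do not say that the 2 libraries of a group came from separate cultures, so the p-values measure the spread between these libraries, which may be technical.

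Paraspeckles are bodies of the nucleus that form around the long transcript of NEAT1 while it is being made, and they hold back certain RNAs and RNA-binding proteins. NONO, SFPQ and PSPC1 are the 3 members of the DBHS family of RNA-binding proteins, which coat NEAT1 in pairs, and RBM14 is a protein with a prion-like domain that the bodies need for their assembly. Undifferentiated human embryonic stem cells are known for low NEAT1 and for lacking paraspeckles, which appear as the cells differentiate. NEAT1 is made as a short transcript with a poly(A) tail and as a long one whose end is cut by RNase P and carries none.

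NEAT1 lies at chr11:65422774-65445540 on the plus strand (GRCh38, GENCODE 29), where its 8 annotated transcripts overlap over 22767 bases of exon with no intron common to all. The long annotated transcript is a single exon of 22743 bases, and the first short one has 3441 bases. The 2 stretches below are shown because they are where the short and the long forms end, which decides what a polyA library can hold. The first runs over chr11:65426443-65426522, plus strand, with the poly(A) signal AATAAA in capitals, 46 bases past the annotated end of the short transcript. The second is the last 100 bases of the long transcript, chr11:65445441-65445540, plus strand. Its capitals mark the A-rich last 10 bases, AAAAGCAAAA, and the U-rich stretch TTTTGCTTTT that is their exact reverse complement. The end of the long transcript is known to fold into a triple helix that stands in for a tail. The capitals mark only this complementary pair and not every base of that fold.
NEAT1 short form end: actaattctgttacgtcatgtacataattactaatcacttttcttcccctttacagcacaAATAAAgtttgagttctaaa
NEAT1 long form end: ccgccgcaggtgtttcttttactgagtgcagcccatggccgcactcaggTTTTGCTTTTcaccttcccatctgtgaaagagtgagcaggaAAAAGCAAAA
Searched on the RNA strand only, AATAAA stood in the last 80 bases of 26.2% of 203677 GENCODE transcripts of 100 bases or more, and it was not in the last 100 bases of the long NEAT1 transcript. Both the U-rich and the A-rich letters stood in the last 100 bases of 3 of those transcripts, the long NEAT1 and 1 each of RETREG3 and NDUFA5. The tables give 1 value a gene, so the 2 forms were not separated in what follows.

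Values are TPM (reads scaled for gene length and library total), as deposited. The total RNA values behave as reads over the whole gene, introns included, divided by the full gene span, and the polyA values as reads divided by exon bases. NEAT1 has the same length by either measure, while the span of NONO is 3.40 times its exon bases, that of SFPQ 2.26 times and that of PSPC1 22.5 times. Total RNA values of these mRNAs therefore hold unspliced with spliced RNA, and levels of different genes are not compared. INPUT, CE, ME and SNE libraries held 8604862 to 28535284 rebuilt gene reads, against 380096 to 1835687 in CBNE, 474013 to 7862412 in PE and 14449217 to 17270359 in polyA. GAPDH, a cytoplasmic mRNA, stood at 6858 and 6725 TPM in day 0 CE and at 889 and 875 in day 0 SNE. The mitochondrial MT-ND2 was highest in ME on day 0, at 44431 and 41502 TPM against 13217 and 12658 in SNE, so SNE still held mitochondrial RNA.

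NEAT1 rose about 10-fold in unfractionated cells between day 0 and day 3 and lay in the same range on day 5. It stood at 43.0 and 43.9 TPM in the day 0 INPUT libraries, at 418 and 480 on day 3 and at 434 and 538 on day 5. Every day 3 and day 5 library lay far above both day 0 libraries, and the day 3 and day 5 libraries overlapped. The difference in log2(TPM + 1) was 3.34 ± 0.21 (SE) from day 0 to day 3 and 3.45 ± 0.21 from day 0 to day 5, with limma adjusted p = 3.3e-10 and 8.6e-11. A gene was called at an adjusted p under 0.05 and a log2 difference of at least 1, and 7.44% and 12.8% of all 24735 genes tested were called in these comparisons. Between day 3 and day 5 the difference was 0.11 with a 95% interval of -0.33 to 0.55 (limma adjusted p = 0.98), where 4.81% of genes were called.

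The day 0 cells expressed the pluripotency genes POU5F1, NANOG and LIN28A, while SOX2 was listed at 0 in every library. SOX2 lies wholly inside the noncoding gene SOX2-OT on the same strand, and as for RBM14, described further on, its 0 is not read as absence. The summed level of the pluripotency markers without SOX2 ran from 1653 and 1656 TPM on day 0 to 1026 and 998 on day 5. Of the 3 tested, 2 were called lower on day 5, POU5F1 and NANOG, where 6.67% of all genes were. The median log2 difference of the 3 was -1.14. The 4 primitive streak and mesoderm markers (TBXT, MIXL1, EOMES and HAND1) went from sums of 6.83 and 5.57 TPM to 1336 and 1250, and all 4 passed the test by day 3. Amnion, trophoblast and endoderm markers rose over the same days, and unlike NEAT1 in INPUT they rose further from day 3 to day 5. All 5 amnion and trophoblast markers (GABRP, ISL1, CDX2, GATA3 and TFAP2A) rose by day 5, from sums of 3.13 and 2.63 TPM on day 0 to 91.3 and 97.0 on day 3 and 433 and 443 on day 5. The 3 endoderm markers went from sums of 3.64 and 4.86 TPM to 32.8 and 36.7 on day 3 and 946 and 917 on day 5. Of these, FOXA2 was listed at 0 in INPUT on days 0 and 3 and did not reach 1 TPM in 2 libraries. It was not tested, and the 2 called higher by day 5 were SOX17 and CER1. The 2 neuroectoderm markers stayed at sums of 0.175 to 2.78 TPM. The part of all these markers in the rise of NEAT1 was not tested. In bulk RNA, more cells that express NEAT1 and more NEAT1 per cell cannot be told apart.

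NEAT1 rose in all 5 extracts as well, by different amounts. In CE it stood at 32.0 and 34.2 TPM on day 0, 60.7 and 73.9 on day 3 and 108 and 113 on day 5. In SNE it stood at 174 and 176 TPM on day 0, at 1057 and 1021 on day 3 and at 2449 and 2858 on day 5. The day 5 mean was 3.34-fold that of day 0 in CE and 15.2-fold in SNE, and no library of a later day overlapped with day 0 in either. In ME the pairs were 61.1 and 63.9, then 142 and 158, then 285 and 331 TPM. From day 0 to day 5 the log2 difference was 1.71 for CE, 2.28 for ME, 3.91 for SNE, 2.73 for CBNE and 4.62 for PE. NEAT1 was called higher in all 5, and the called share of all genes was 14.4% for CE, 17.2% for ME, 19.8% for SNE, 23.8% for CBNE and 38.1% for PE. In CBNE the pairs were 29.6 and 25.9, 182 and 152, then 155 and 232 TPM, and in PE they were 61.4 and 36.5, 701 and 695, then 976 and 1451. The first pairs rest on few reads, 20 and 15 in CBNE and 55 and 27 in PE, against at least 829 in each CE, ME, SNE and INPUT library. Both day 5 libraries lay above both day 3 libraries in CE, ME, SNE and PE, while these days overlapped in CBNE and INPUT. The step from day 3 to day 5 within an extract was not tested.

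**Figure D1:**
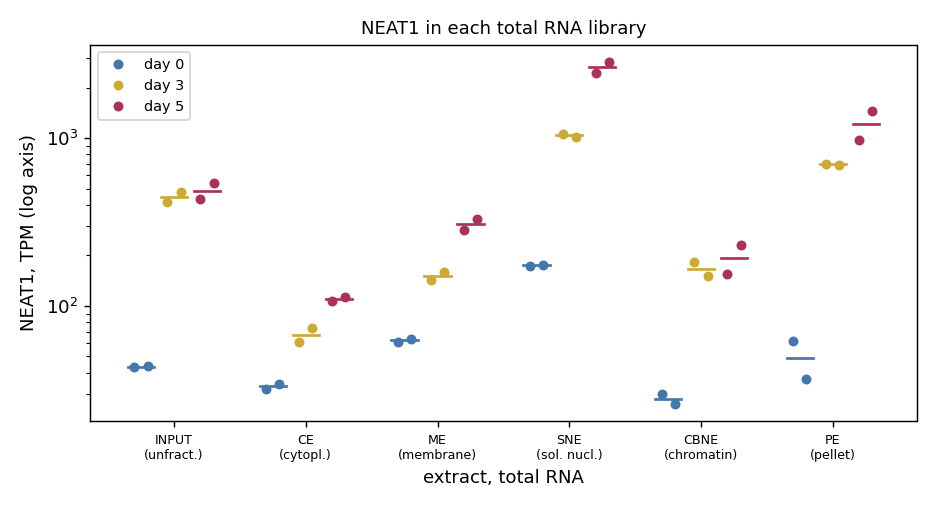
NEAT1 in each total RNA library, in TPM on a log axis, by extract (x axis) and day (colour); points are libraries and bars the mean of 2. Day 0 lies lowest in every extract, and SNE of day 5 holds the highest values, 2449 and 2858 TPM.

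Ordered by mean over the 18 groups, NEAT1 ran from 27.8 ± 2.63 TPM (SD, n = 2) in day 0 CBNE to 2653 ± 289 in day 5 SNE. The next groups from the top were day 5 PE at 1214 ± 336, day 3 SNE at 1039 ± 25.9 and day 3 PE at 698 ± 3.93 TPM. The libraries of day 3 SNE lay between those of day 5 PE, so these neighbours do not differ beyond their spread. The same holds for INPUT of day 5 and day 3. It also holds between each group and the next in the run of day 5 CBNE, day 0 SNE, day 3 CBNE and day 3 ME, and in that of day 3 CE, day 0 ME, day 0 PE and day 0 INPUT. All of the lowest 4 groups, PE, INPUT, CE and CBNE, were of day 0.

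NEAT1 was higher in SNE than in CE on all 3 days, and the gap widened with differentiation. The mean in SNE was 5.29 times that in CE on day 0, 15.4 times on day 3 and 24.0 times on day 5. In log2 the differences were 2.37 ± 0.21, 3.93 ± 0.21 and 4.57 ± 0.21 (limma adjusted p = 5.9e-09, 3.7e-12 and 1.9e-13). Many genes were higher in SNE on this scale. In all 38.7%, 37.2% and 44.1% were called, with 30.0%, 30.5% and 35.9% called higher, and the median gene itself lay 0.53, 0.54 and 0.65 above CE. Relative to that median NEAT1 lay 1.84, 3.40 and 3.92 higher. The change of the difference from day 0 was 1.57 ± 0.30 on day 3 and 2.20 ± 0.30 on day 5 (limma adjusted p = 0.0018 and 3.7e-05), where 3.76% and 7.16% of genes were called. Between day 3 and day 5 it was 0.64 ± 0.30 (limma adjusted p = 0.33), where 2.50% were. Other scalings set every library to a common median gene, applied quantile normalisation, or fitted reads rebuilt from the TPM with limma-voom. NEAT1 kept its calls under every scaling, filter and left-out library tried, at 1.16 to 2.71 on day 0, 2.72 to 4.39 on day 3 and 2.97 to 5.13 on day 5, the lowest each time on rebuilt reads. The changes ran from 1.33 to 1.74 and from 1.78 to 2.63. The running codes of the libraries in the labels jump within day 5, so that INPUT, CE and 1 ME library lie before the jump and SNE, CBNE, PE and the other ME library after it, and what the codes stand for is not given in the sources used here. On day 5 the jump and the difference between SNE and CE cannot be told apart. The codes of the day 3 libraries show no such jump. The ME libraries on its sides held 285 and 331 TPM of NEAT1, and with 1 library a side the jump was not tested.

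For NEAT1, ME exceeded CE by 0.90 ± 0.21, 1.15 ± 0.21 and 1.47 ± 0.21 in log2 on days 0, 3 and 5, and was called on days 3 and 5, where 7.82% and 8.09% of genes were, and not on day 0, where 16.6% were. Against SNE, CBNE gave -2.62, -2.64 and -3.80, with 49.4%, 41.8% and 50.9% of genes called. On day 0 that call was lost with a common median (-0.98). PE against SNE gave -1.86 on day 0, -0.57 on day 3 and -1.15 on day 5, with 51.8%, 13.4% and 21.1% of genes called. The day 0 and day 5 calls in PE were lost with a common median (-0.38 and -0.74) and on rebuilt reads (-0.58 and -0.33), and that of day 5 without replicate 1 of PE (-0.87).

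Within a library, the ratio of NEAT1 to MALAT1 does not depend on how the library is scaled. MALAT1, the nuclear speckle RNA, is the next large nuclear noncoding gene on the chromosome (chr11:65497688-65506516, plus strand). NEAT1 amounted to 1.54% and 1.58% of MALAT1 TPM in the day 0 INPUT libraries, 7.04% and 8.15% on day 3 and 5.52% and 6.02% on day 5. In SNE the pairs were 1.84% and 1.81%, then 6.99% and 7.08%, then 9.08% and 10.6%. In CE they were 1.46% and 1.57%, 2.32% and 2.83%, then 2.76% and 3.05%. Within each extract every later library exceeded both day 0 libraries, so NEAT1 moved further than MALAT1 in these libraries. On day 3 PE held the highest percentages, 9.34% and 9.45%. MALAT1 itself rose in INPUT, by 1.09 ± 0.14 on day 3 and 1.59 ± 0.14 on day 5 in log2 (limma adjusted p = 1.1e-05 and 3.0e-08), the day 3 value being 0.94 on rebuilt reads. Its difference between SNE and CE changed by 0.36 ± 0.20 and 0.69 ± 0.20, which was not called (limma adjusted p = 0.44 and 0.027).

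**Figure D2:**
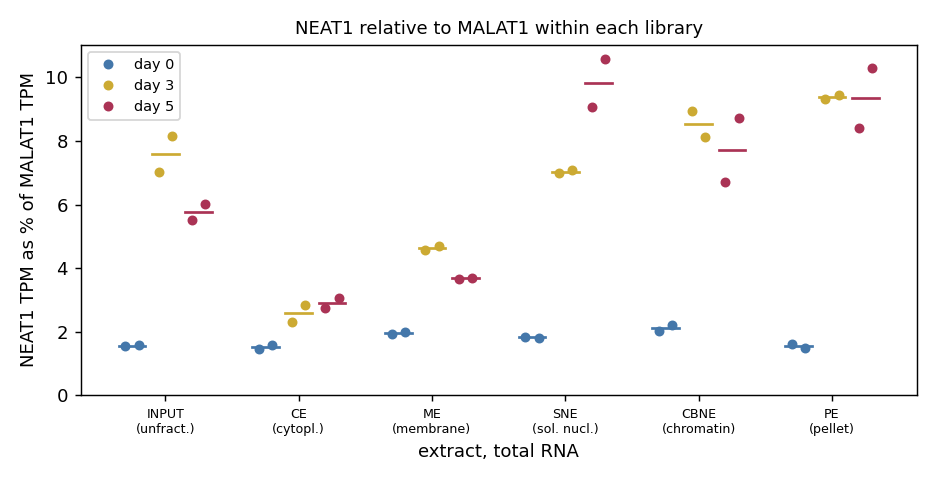
NEAT1 TPM as a percentage of MALAT1 TPM within each total RNA library, by extract (x axis) and day (colour); points are libraries and bars the mean of 2. All day 0 libraries lie between 1.46% and 2.22%, and CE of days 3 and 5 lies lowest among the later groups, at 2.32% to 3.05%.

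The 3 DBHS genes did not move with NEAT1 in unfractionated cells. NONO, at chrX:71283192-71301168 on the plus strand, stood at 363 and 361 TPM on day 0, 319 and 321 on day 3 and 345 and 344 on day 5. SFPQ, at chr1:35176378-35193148 on the minus strand, stood at 504 and 489, then 532 and 542, then 510 and 520 TPM. The highest INPUT library was 1.14 times the lowest for NONO and 1.11 times for SFPQ. Within that narrow range the NONO pairs of the 3 days did not overlap, and the SFPQ pair of day 3 lay above the others. PSPC1, at chr13:19674752-19783019 on the minus strand, stood at 33.0 and 35.9, then 45.9 and 50.4, then 37.5 and 40.8 TPM, and its day 3 pair lay above the others. None of the 3 was called between any days in limma or limma-voom. At an unadjusted p under 0.05 there was 1, PSPC1 on day 3 against day 0, and 0 in the other contrasts. By limma, 7.44% of all genes were called on day 3 against day 0, 12.8% on day 5 against day 0 and 4.81% on day 5 against day 3. From day 0 to day 5 the log2 differences were -0.07 for NONO (95% interval -0.35 to 0.21), 0.05 for SFPQ (-0.21 to 0.32) and 0.18 for PSPC1 (-0.22 to 0.58). Over the same days NEAT1 differed by 3.45.

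**Figure D3:**
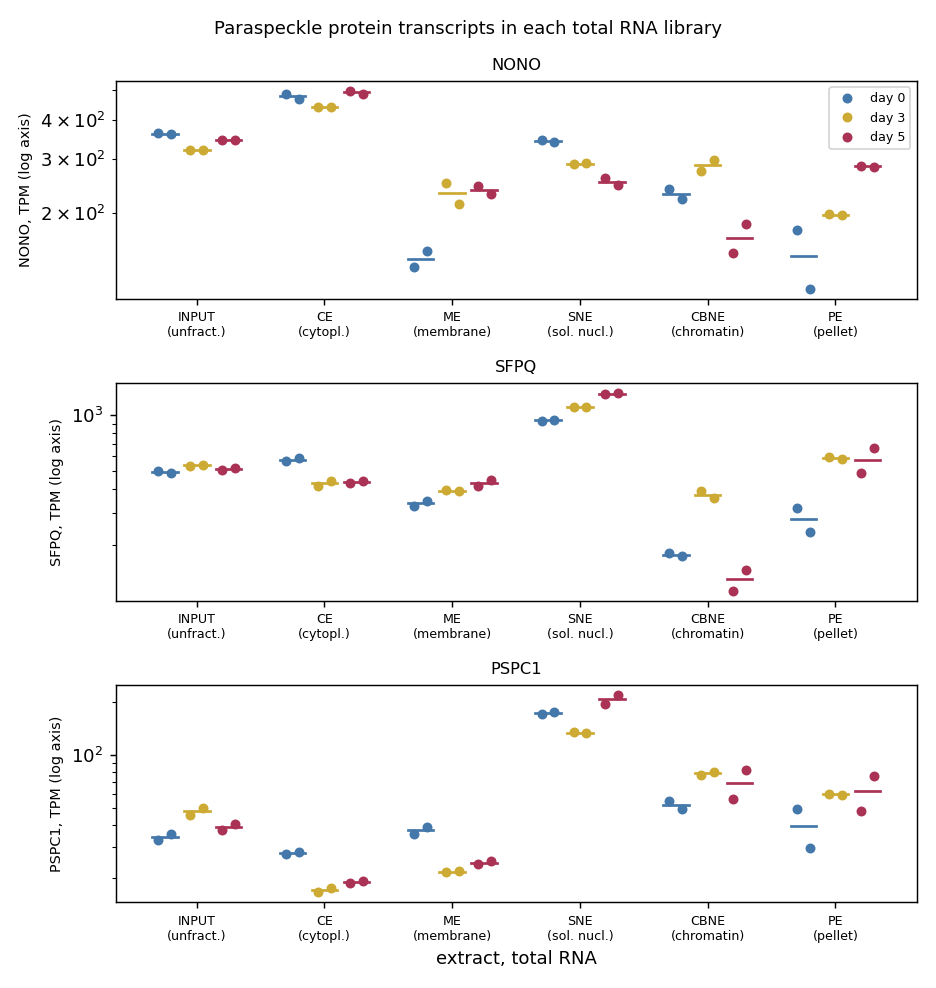
NONO, SFPQ and PSPC1 in each total RNA library, in TPM on log axes, by extract (x axis) and day (colour); points are libraries and bars the mean of 2. The INPUT libraries lie close together for NONO and SFPQ, and the day 3 pair of PSPC1 lies above its other INPUT libraries. PSPC1 and SFPQ are highest in SNE, and NONO is highest in CE.

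Their position between extracts differed from gene to gene. PSPC1 had the widest SNE to CE difference of the 3, at 171 and 175 TPM in SNE against 27.3 and 28.3 in CE on day 0. On day 3 it stood at 134 and 133 against 16.6 and 17.7, and on day 5 at 196 and 221 against 18.7 and 19.3. The libraries of SNE and CE did not overlap on any day. The log2 differences were 2.59 ± 0.19, 2.89 ± 0.19 and 3.38 ± 0.19 (limma adjusted p = 4.0e-10, 6.6e-11 and 3.4e-12), called under every scaling. They changed by 0.30 ± 0.27 and 0.79 ± 0.27 from day 0, which was not called (limma adjusted p = 0.76 and 0.060).

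SFPQ was higher in SNE than in CE, at 934 and 937 TPM against 566 and 587 on day 0, at 1100 and 1101 against 418 and 445 on day 3, and at 1291 and 1317 against 434 and 440 on day 5. SNE lay above CE in every library on this scale. The log2 difference was 0.70 ± 0.13 on day 0, under the size asked for, and 1.35 ± 0.13 and 1.57 ± 0.13 on days 3 and 5 (limma adjusted p = 1.2e-08 and 8.1e-10). Relative to the median gene SFPQ lay 0.17, 0.81 and 0.92 higher. With a common median the differences were -0.18, 0.24 and 0.28, and on rebuilt reads -0.54, 0.14 and -0.04, so neither the calls nor the direction held across scalings. The change from day 0 to day 5 was 0.88 ± 0.18 (limma adjusted p = 0.0023), under the size asked for, and 1.07 with quantile normalisation.

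NONO was the one DBHS gene whose highest extract was CE, at 486 and 469 TPM on day 0, 442 and 441 on day 3 and 498 and 488 on day 5. In SNE it stood at 345 and 341, 289 and 289, then 259 and 246 TPM, below CE in every library. The log2 difference between SNE and CE was -0.48 ± 0.13, -0.61 ± 0.13 and -0.96 ± 0.13, under the size asked for on each day, and relative to the median gene NONO lay at -1.15 on day 3 and -1.61 on day 5. It was called lower with a common median (-1.35, -1.72 and -2.26) and on rebuilt reads (-1.71, -1.82 and -2.58), and with quantile normalisation it turned to 0.44 on day 0 and 0.18 on day 3. In ME, NONO was low on day 0, at 133 and 150 TPM, and higher later, at 250 and 214, then 244 and 230.

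**Figure D4:**
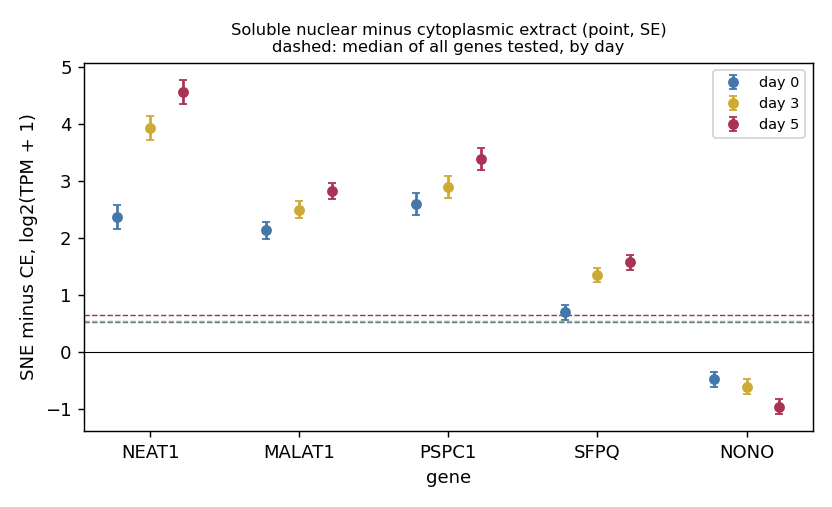
Difference between SNE and CE in log2(TPM + 1) for NEAT1, MALAT1, PSPC1, SFPQ and NONO by day (colour). Each point is the difference between 2 group means of 2 libraries each. Bars are the SE, with the spread taken from all 36 libraries, and dashed lines the median of all genes tested. NEAT1 moves from 2.37 to 4.57, PSPC1 lies at 2.59 to 3.38, SFPQ near or above the median gene and NONO below 0.

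In CBNE, SFPQ was called lower than in SNE on all 3 days, PSPC1 on days 0 and 5 and NONO on none, where 49.4%, 41.8% and 50.9% of all genes were called. On day 3, the deepest day for CBNE, NONO held 274 and 297 TPM there against 289 and 289 in SNE, SFPQ 392 and 358 against 1100 and 1101, and PSPC1 77.1 and 80.4 against 134 and 133. For NONO the log2 difference was -0.58 on day 0, -0.02 on day 3 (95% interval -0.29 to 0.26) and -0.61 on day 5. For SFPQ it was -2.38, -1.55 and -3.31, and for PSPC1 -1.71, -0.76 and -1.59. With a common median the SFPQ calls of days 0 and 3 (-0.75 and -0.67) and both PSPC1 calls (-0.08 and 0.62) were lost and NONO turned to 1.05, 0.87 and 1.6, and on rebuilt reads the PSPC1 calls were lost again (-0.86 and -0.85). In PE on day 0 all 3 genes were called lower than in SNE (NONO -1.28, SFPQ -1.77 and PSPC1 -2.14), where 51.8% of all genes were called. SFPQ was called again on day 5 (-1.19) and PSPC1 on days 3 and 5 (-1.15 and -1.76), where 13.4% and 21.1% of all genes were, while NONO came to -0.55 on day 3 and 0.16 on day 5. On rebuilt reads each of these PE calls was lost.

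In polyA RNA of day 0, NEAT1 was again higher in the nucleus, at 21.5 and 21.0 TPM (1372 and 1396 reads) against 3.34 and 2.84 in the cytoplasm (314 and 280 reads). The nuclear mean was 6.88-fold the cytoplasmic one, and the log2 difference was 2.45 ± 0.11 (limma adjusted p = 1.3e-05) where 36.3% of 16667 genes were called and the median gene lay at 0.50. MALAT1 stood at 610 and 617 TPM against 14.5 and 14.6, a log2 difference of 5.30 ± 0.04. NEAT1 therefore came to 3.52% and 3.41% of MALAT1 in the nucleus and to 23.0% and 19.5% in the cytoplasm, whereas in day 0 total RNA the percentages were alike in CE and SNE. The polyA values of NEAT1 are divided by 22767 bases although the tailed form is the short one, so its level there is not set against that of other genes.

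Of the DBHS genes, PSPC1 differed most between the 2 kinds of library. Its polyA nucleus to cytoplasm difference was 0.29 ± 0.04 in log2, from 131 and 134 against 109 and 107 TPM, where total RNA gave 2.59 between SNE and CE on the same day. NONO gave 0.30 ± 0.04 in polyA RNA, from 900 and 861 against 705 and 730 TPM, and -0.48 in total RNA. SFPQ gave 0.98 ± 0.04, from 786 and 810 against 393 and 419 TPM, just under the size asked for, and 0.70 in total RNA. The polyA table was normalised separately, and its values behave as exon reads, so these pairs are set side by side without a test.

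RBM14 could be followed in polyA RNA only. It lies at chr11:66616582-66627347 on the plus strand and was listed at 0 in all 36 total RNA libraries. Its span lies 99.6% inside the readthrough gene RBM14-RBM4 (chr11:66616626-66646469, plus strand), which joins it to RBM4 and leaves it 44 bases of its own. In total RNA, 729 of 883 protein-coding genes that lie at least 99% inside another gene of the same strand were listed at 0 throughout (82.6%), against 737 of 7199 with no overlap (10.2%). A value of 0 for RBM14 is therefore not read as absence. In polyA RNA the shares were 51.5% and 17.9%, and whether overlap lowered the polyA values of RBM14 was not tested. The stretches below show where the 2 transcripts part, with the last 30 bases of their shared first exon in lower case and the first 30 of the next exon in capitals, both in coding sequence. They run over chr11:66617028-66617057 and then chr11:66624214-66624243 in RBM14, or chr11:66643450-66643479 in RBM14-RBM4, all on the plus strand.
RBM14: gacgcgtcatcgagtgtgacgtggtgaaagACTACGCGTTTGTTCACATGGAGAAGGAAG
RBM14-RBM4: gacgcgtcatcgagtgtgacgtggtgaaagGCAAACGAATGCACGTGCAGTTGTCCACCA
The readthrough transcript shares its first 432 bases with that of RBM14, which is 27.6% of its length.

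**Figure D5:**
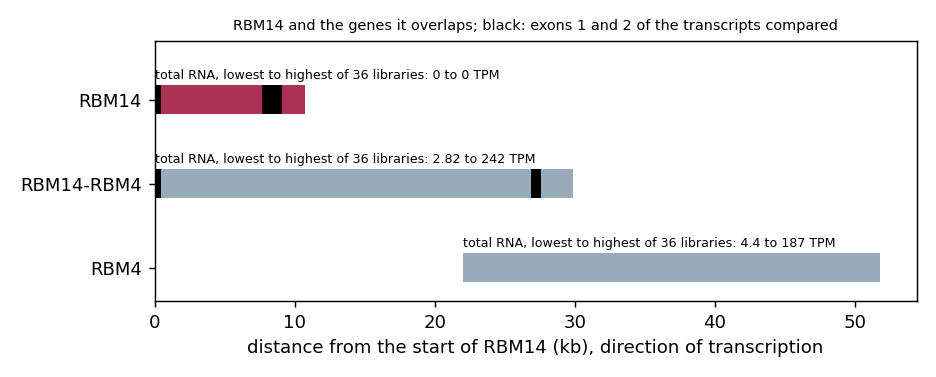
RBM14, RBM14-RBM4 and RBM4 drawn to scale by distance from the start of RBM14 in kb, with exons 1 and 2 of the transcripts compared in black and the lowest to highest total RNA value over 36 libraries. RBM14 lies within RBM14-RBM4 but for 44 bases, and is listed at 0 while its neighbours run to 242 and 187 TPM.

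In polyA RNA, RBM14 held 2.89 and 1.94 TPM in the cytoplasm (47 and 33 reads) and 0.996 and 2.01 in the nucleus (11 and 23 reads). The pairs overlapped, and the log2 difference of -0.46 ± 0.27 was not called (limma adjusted p = 0.16), although it was called lower under quantile normalisation (-1.31), a common median (-1.02) and rebuilt reads (-1.08). For RBM14-RBM4, which reads of the shared stretch were counted in total RNA is not given in the sources used here, so reads of RBM14 cannot be told apart within it. It stood at 10.9 and 12.5 TPM in day 0 CE against 38.0 and 38.3 in SNE, and at 2.82 and 2.87 against 27.7 and 27.1 on day 5. Its SNE pair lay above its CE pair on both days, and the log2 difference went from 1.63 ± 0.14 to 2.89 ± 0.14 (change 1.26 ± 0.19, limma adjusted p = 0.00014). The day 0 call was lost with a common median (0.75) and on rebuilt reads (0.46), and that of the change with a common median (0.83) and quantile normalisation (0.71). CBNE held the highest values of RBM14-RBM4 among these extracts, at 132 and 127 TPM on day 0, 242 and 213 on day 3 and 133 and 175 on day 5, from 64 to 461 reads a library. In INPUT it stood at 13.9 and 13.1 TPM on day 0 and 6.83 and 6.51 on day 5.

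Transcripts of 36 other reported paraspeckle proteins were set beside the members. Of these, 32 were tested in total RNA (TARDBP, HNRNPA1, RBM12 and CELF6 fell under the filter). HNRNPA1 and RBM12 were listed at 0 in every total RNA library. Their 0 is not read as absence, and whether overlap with other genes lowered it was not tested. In INPUT, 1 of the 32 was higher and 1 lower on day 3, where 4.06% of all genes were higher and 3.38% lower. On day 5, 2 were higher and 0 lower, beside 6.15% and 6.67% of all genes. These were FIGN (1.17 ± 0.32 on day 3 and 1.33 ± 0.32 on day 5), ZC3H6 (-1.18 ± 0.21 on day 3) and DLX3, a homeobox factor, which rose from 1.12 and 1.61 TPM to 61.9 and 58.9 on day 5 (limma adjusted p = 6.5e-05). Between SNE and CE, 6, 10 and 10 of the 32 were higher and 3, 2 and 3 lower on days 0, 3 and 5. Their median difference of 0.43, 0.43 and 0.51 lay beside 0.53, 0.54 and 0.65 for all genes, and 9, 12 and 13 of the 32 were called on the 3 days, beside 38.7%, 37.2% and 44.1% of all genes. FIGN and CPSF6 led the higher ones, at 2.44 and 2.26 on day 0, and NUDT21 (-1.96), HNRNPF (-1.66) and RBM3 (-1.52) were lower. All genes were called lower at 8.66%, 6.64% and 8.17% on the 3 days. The higher calls depended on the scale, since with a common median 2 of the 6, 2 of the 10 and 2 of the 10 held, FIGN and CPSF6 each time, and on rebuilt reads 2, 2 and 1. The lower calls of all 3 days held in both, and with quantile normalisation 2 of 3, 0 of 2 and 2 of 3 did. In polyA RNA, 10 of 32 tested were higher in the nucleus and 1 lower, where 30.0% and 6.22% of all genes were, led by CIRBP (1.64), SS18L1 (1.53) and CPSF6 (1.40), with a median of 0.48 beside 0.50 for all genes. With a common median SS18L1 (0.98) and CPSF6 (0.85) fell under the size asked for.

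SS18L1, a protein of the chromatin remodelling complex without which paraspeckles do not form, was higher in SNE than in CE on each day (1.35, 1.59 and 1.72), a call lost with a common median and on rebuilt reads. It was the 1 called of 6 such genes tested on each day, where 38.7%, 37.2% and 44.1% of all genes were called. The median differences of the 6, at 0.23, 0.37 and 0.39, lay beside 0.53, 0.54 and 0.65 for all genes. SS18L1 had its highest values in CBNE and not in SNE. They were 185 and 164 TPM against 67.9 and 67.6 in SNE on day 0, and 153 and 146 against 46.3 and 50.8 on day 5.

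The choice between the short and the long form of NEAT1 is made at the signal printed above. NUDT21 and CPSF6, subunits of cleavage factor Im, favour the short form, and HNRNPK holds NUDT21 off. On days 3 and 5, 0 of these 3 were called against day 0 in INPUT by limma or limma-voom. At an unadjusted p under 0.05 there were 0 and 1. By limma, 7.44% and 12.8% of all genes were called on these days. In INPUT CPSF6 stood at 190 and 194 TPM on day 0 and 137 and 142 on day 5, NUDT21 at 170 and 171 against 136 and 130, and HNRNPK at 788 and 804 against 685 and 676. The day 5 pairs of all 3 genes lay below those of day 0, by less than the size asked for. CPSF6 transcripts were higher in SNE than in CE (2.26, 2.13 and 2.32, the last 2 at 0.93 and 0.72 on rebuilt reads), and NUDT21 was lower (-1.96, -1.03 and -1.26, the day 3 value at -0.75 with quantile normalisation). In polyA RNA the pair stood on opposite sides as well, at 1.40 and -1.03. TARDBP, which also bears on the choice, was listed at 0 or with 1 or 2 reads in each total RNA library and at 4.95 to 11.25 TPM in polyA RNA.

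Paraspeckles are known to hold back mRNAs with paired Alu repeats, and 6 such genes were listed, of which 5 were tested in total RNA. LIN28A, the pluripotency factor whose mRNA is the best known of them in embryonic stem cells, was lower in SNE than in CE on all days, at 444 and 420 TPM against 1822 and 1808 on day 0 and 374 and 342 against 1296 and 1297 on day 5. Its log2 difference was -2.07 ± 0.10, -1.35 ± 0.10 and -1.86 ± 0.10, with changes of 0.72 ± 0.14 on day 3 and 0.21 ± 0.14 on day 5 that were not called (limma adjusted p = 0.0024 and 0.43). The day 3 and day 5 calls were lost with quantile normalisation (-0.09 and -0.61), and that of day 3 with totals without structured and mitochondrial RNA (-0.89). Of the 5 genes, 0 were called for a change of the SNE to CE difference on either day in limma or limma-voom. At an unadjusted p under 0.05 there were 3 on day 3 and 2 on day 5. By limma, 3.76% and 7.16% of all genes were called for that change on these days. Between SNE and CE, 1, 2 and 2 of the 5 were higher and 2, 1 and 2 lower on days 0, 3 and 5, where 30.0%, 30.5% and 35.9% of all genes were higher and 8.66%, 6.64% and 8.17% lower. Their median differences of -0.84, -0.39 and -0.62 lay beside 0.53, 0.54 and 0.65 for all genes. Beside LIN28A, F11R was lower on day 0 (-1.19, and -0.86 with totals without structured and mitochondrial RNA) and PAICS on day 5 (-1.14, and -0.81 with those totals and -0.96 with quantile normalisation). XIAP was higher in SNE (1.85, 2.16 and 1.77) and MDM2, the ubiquitin ligase of p53, was higher there on days 3 and 5 (1.40 and 1.52). With a common median XIAP came to 0.98 on day 0 and 0.47 on day 5 and MDM2 to 0.29 and 0.22, under the size asked for. MDM2 also rose in INPUT, from 103 and 104 TPM to 258 and 278 on day 3 and 204 and 215 on day 5 (log2 1.36 ± 0.10 and 1.01 ± 0.10, the latter 0.98 with a pseudocount of 5).

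Of 7 genes around NEAT1 on the chromosome, MALAT1 was the 1 called higher in INPUT on day 5. EHBP1L1 was the 1 called lower (-1.16 ± 0.21, limma adjusted p = 0.00019). Of all genes, 6.15% were called higher and 6.67% lower. The median of the 7 was 0.36, beside -0.08 for all genes and 3.45 for NEAT1. In polyA RNA 4 of the 7 were higher in the nucleus, with MALAT1 first, where 30.0% of all genes were.

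By Pearson's r of group means over the 12 groups of INPUT, CE, ME and SNE, among 15643 genes that reached 10 TPM, the genes most like NEAT1 were BTBD19 (r = 0.993), SVIL (0.990), THSD7A (0.990), CLIP1 (0.989) and OVCH2 (0.988). They share with NEAT1 the same libraries and their depth. All 5 were low in day 0 INPUT, at 0.895 to 6.68 TPM, and reached 37.2 to 136 TPM in day 5 SNE. Over all 18 groups 2 of the 5, OVCH2 and SVIL, stayed among the first 5. For NONO the nearest were GRSF1, AAAS and ACAA2 (r = 0.983 to 0.977), for SFPQ CACUL1, MTG2 and YTHDF3 (0.987 to 0.986) and for PSPC1 CLASP2, ENOSF1 and ZZZ3 (0.999 to 0.998). Among the members, r over the 12 groups was 0.91 for SFPQ with PSPC1, 0.68 for NEAT1 with SFPQ, 0.67 with PSPC1 and -0.26 with NONO, and 0.94 for NEAT1 with MALAT1.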

How the data were processed

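Total RNA of 36 libraries and polyA RNA of 4 were analysed, each grouped by the extract and day in its title. Both deposited tables hold TPM as the authors computed it, read from the values, since the headers name no unit. The submitters' processing notes name Salmon 1.3.0, featureCounts 1.6.2, HISAT2 2.0.5, GATK and the build hg38, and which of them made which table is not given in the sources used here. TPM times gene length was tested for whole multiples (tolerance 0.01, values of under 50 reads). With GENCODE 29 gene spans, 98.3% to 98.7% of total RNA values were whole (4.87% to 19.5% with exon bases), and with exon bases 97.1% to 97.5% of polyA values were (34.6% to 39.9% with spans). Reads were rebuilt from these. Counting by span is inferred from the values and stated in no source.

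The 24735 and 16667 genes that reached 1 TPM in 2 libraries or more were fitted as log2(TPM + 1) in limma 3.58.1 (R 4.3.3; trended, robust prior) with a mean per group, 18 and 2 residual degrees of freedom and Benjamini-Hochberg adjustment over all genes. The fold is on that scale, and a gene was called at adjusted p under 0.05 and a log2 difference of at least 1. The fit was tested on simulated data. Alternatives were pseudocounts of 0.1 and 5, no filter or 5 TPM, quantile normalisation, a common median, totals without structured and mitochondrial RNA, no trend, a replicate block, each library left out, no CBNE and PE, and, added after seeing the data, limma-voom on rebuilt reads. Same-numbered libraries did not deviate together (r -0.04 to 0.07 over 153 pairs of groups). The members and lists were chosen with earlier results of these data known. By the naming rule, the members, MALAT1, up to 4 called genes of each list and contrast and the genes most like each member are named. RBM3 on day 0, HNRNPK, and SMARCA4 and LIN28A in the closing observations, were named with their values seen. An item of the lists is not reported here. Sequences are from the GENCODE 29 transcripts.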

Additional observations from a re-analysis of the deposited data

Results flagged for a closer look

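The difference of NEAT1 between SNE and CE changed between days by a test of the change itself, by 1.57 from day 0 to day 3 and by 2.20 from day 0 to day 5 in log2. Of the other paraspeckle protein genes, 3 of 32 were called for such a change on day 5, where 7.16% of all genes were. On day 3, where 3.76% were, 0 of 32 were called in limma, with 6 at an unadjusted p under 0.05 and 2 called by limma-voom. HNRNPR changed by 1.35 ± 0.43 (limma adjusted p = 0.042), from 18.5 and 22.3 TPM in CE against 14.3 and 9.81 in SNE on day 0 to 18.5 and 15.5 against 27.4 and 25.9 on day 5, and its adjusted p ran from 0.0073 to 0.18 over the alternatives that keep all libraries of CE and SNE. AHDC1 changed by 1.17 ± 0.19 (limma adjusted p = 0.00020), and its SNE libraries went from 25.9 and 25.5 TPM to 67.9 and 68.0 while CE went from 16.9 and 18.2 to 19.3 and 21.4. With a common median AHDC1 came to 0.74 and on rebuilt reads to 0.81, under the size asked for. CIRBP, the cold-inducible RNA-binding protein, changed by -1.01 ± 0.15 (limma adjusted p = 8.7e-05), from 79.6 and 80.9 TPM in CE against 123 and 115 in SNE to 126 and 129 against 91.3 and 95.8, and it kept its direction under every such alternative, at -0.97 with a pseudocount of 5.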

How the results depend on the processing

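Every call of NEAT1 in INPUT between days, between SNE and CE, in the change of that difference and in polyA RNA held under every alternative, as did those of PSPC1 between SNE and CE. The uncalled difference of NEAT1 in INPUT between days 3 and 5 ran from -0.05 to 0.27 with single libraries left out. The SNE to CE median of all genes depended on the scale, at 0.53, 0.54 and 0.65 as deposited, -0.35, -0.57 and -0.65 with a common median and -0.36, -0.14 and -0.38 on rebuilt reads, and the share of calls that were higher on day 5 went from 81.5% to 28.4% and 41.5%. NONO between SNE and CE became called with a common median (-1.35, -1.72 and -2.26) and on rebuilt reads (-1.71, -1.82 and -2.58). SFPQ on day 0 became called with quantile normalisation (1.66) and with totals without structured and mitochondrial RNA (1.04), and lost its calls with a common median (0.24 on day 3, 0.28 on day 5) and on rebuilt reads (0.14 and -0.0381). Its change to day 5 was 1.07 with quantile normalisation. In polyA RNA SFPQ came to 1.03 with quantile normalisation and, with single libraries left out, to between 0.93 and 1.02, the last called without replicate 2 of the cytoplasm, and RBM14 to -1.31 (quantile), -1.02 (common median) and -1.08 (rebuilt reads). With a common median NONO turned in CBNE against SNE to 1.05 on day 0 and 1.6 on day 5, PSPC1 to 0.62 on day 5, NONO in PE against SNE to 0.21 on day 0 and in PE from day 0 to day 5 to -0.0193, and on rebuilt reads NONO in PE against SNE on day 0 came to 0.0045. The cause was not tested. Leaving out each library gave 3.24 to 3.44 and 3.29 to 3.60 for NEAT1 in INPUT on days 3 and 5, 4.46 to 4.68 between SNE and CE on day 5 and 2.09 to 2.31 for its change. On rebuilt reads more genes were called in INPUT, 4737 against 1840 on day 3 and 6401 against 3172 on day 5. The replicate block, for numbers that do not pair the libraries, left 3164 calls in INPUT on day 5 and NEAT1 between SNE and CE at 4.57, and changed no call of a member. With a pseudocount of 5, ZC3H6 on day 3 (-0.70) and EHBP1L1 on day 5 (-0.77) in INPUT fell under the size asked for, and with 0.1 FIGN on day 3 (1.21) missed the adjusted p. Depth limits day 0 CBNE and PE, where NEAT1 had 15 to 55 reads, and all RBM14 values.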

Other observations

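LIN28A mRNA rose in the pellet extract, as did many genes on the deposited scale. In PE it was at 228 and 233 TPM on day 0, 792 and 748 on day 3 and 1488 and 1227 on day 5, and in CE at 1822 and 1808, then 1495 and 1488, then 1296 and 1297. From day 0 to day 5 in PE LIN28A differed by 2.55 ± 0.10 (limma adjusted p = 4.2e-14), by 1.53 with a common median and by 1.90 on rebuilt reads. In the same comparison 38.1% of all genes were called, 81.8% of these higher and the median gene at 0.59 (30.8% and -0.43 with a common median). All 5 tested mRNAs with paired Alu repeats were called higher on the deposited scale. Other genes moved likewise, since 21 of the 32 other paraspeckle protein genes were called higher and 2 lower. The day 0 PE libraries held only 701897 and 474013 rebuilt gene reads. Whether the rise is particular to mRNAs with paired Alu repeats was not tested. SMARCA4, the chromatin remodelling ATPase that paraspeckles need, had its highest values in CBNE, at 278 and 278 TPM on day 0 and 226 and 210 on day 5, against 58.0 and 58.2, then 55.5 and 52.4, in SNE. The SMARCA4 differences of 2.24 ± 0.09 and 1.99 ± 0.09 were called (limma adjusted p = 2.9e-14 and 1.2e-13), where 49.4% and 50.9% of all genes were. Most of those calls were lower, and 1894 and 1539 of 24735 genes were called higher. Of the 6 tested genes without which paraspeckles do not form, 3 were called higher in CBNE than in SNE and 3 lower on both days.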
